A study of Ovis aries with 18 samples.

Results

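The 7 probes described here, A_70_P061331, A_70_P003541, A_70_P019681, A_70_P005636, A_70_P012436, A_70_P006161 and A_70_P058706, were among the probes that rose most in sheep blood with agonists of toll-like receptor 4 (TLR4) and carried no standard gene symbol. They were chosen by probe name, for their rise over the control in these same arrays, from 15008 non-control probes. Their rises over the control are therefore a description, and any count of calls on those rises was fixed by the choice and supports nothing. The difference between the agonists was not itself used to choose them, but it shares the agonist arrays with the rises that were, so it is not an independent measure either. Blood came from 6 healthy adult female sheep (Ovis aries), named 71Y, 51Y, 20, 170, 80 and 65Y. Blood of each animal was incubated outside the body for 90 minutes with phosphate-buffered saline (PBS) as the control, with lipopolysaccharide (LPS) at 1 µg/mL or monophosphoryl lipid A (MPLA) at 10 µg/mL (the labels give the same figures in µg, and the study's methods give them per mL), which gave 6 arrays per treatment and 18 in all. Since the doses differed, agonist and dose cannot be told apart where MPLA is set against LPS.

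TLR4 is the receptor of the innate immune system for LPS, the outer membrane component of Gram-negative bacteria. MPLA is derived from lipid A, the active part of LPS, by loss of a phosphate group, and is used as a vaccine adjuvant. Engagement of TLR4 on blood leukocytes activates NF-kappaB and other factors, and transcripts of cytokines, chemokines and regulators of inflammation accumulate early. In whole blood, a change in the number of cells of a type and a change in RNA per cell cannot be told apart.

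The identity of these probes was limited to what the array annotation gave. A_70_P061331 carried the RefSeq accession XM_004009907, which belongs to LOC101104661 (gene identifier 101104661), a protein-coding gene with a provisional name. In the order of protein-coding genes on the sheep assembly ARS-UI_Ramb_v3.0, LOC101104661 stood next to CXCL1, which encodes a neutrophil-attracting chemokine, and CXCL8 lay a few genes further on the same side. A_70_P003541 carried the GenBank accession EU366476. Accessions of sequence records were also given for A_70_P019681 (EE866720), A_70_P005636 (EE784504), A_70_P006161 (EE862234) and A_70_P058706 (FE033277), and none of these matched a gene in the table used here. For A_70_P012436 the annotation repeated the probe name. Each of these names occurred on 1 probe of the array, so no second probe of the same transcript was known to check any of them.

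Signals are given as scaled signal, the processed intensity of a probe divided by the 75th percentile of its array. A probe was called detected on an array where the scanner software marked it as well above background. All 7 probes were detected on 6 of 6 LPS arrays and on 6 of 6 MPLA arrays, and so were among the 4122 probes tested. With PBS they were detected on between 0 and 5 of 6 arrays. For 11 of their PBS values the software had replaced the signal with a small positive surrogate value, so the lowest PBS signals are poorly measured. None of the spots of these probes was marked as an outlier or as saturated. The arrays differed in brightness, with a 75th percentile between 24.8 and 124.2 in PBS, between 28.6 and 111.0 in LPS and between 42.0 and 99.3 in MPLA.

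**Figure D1:**
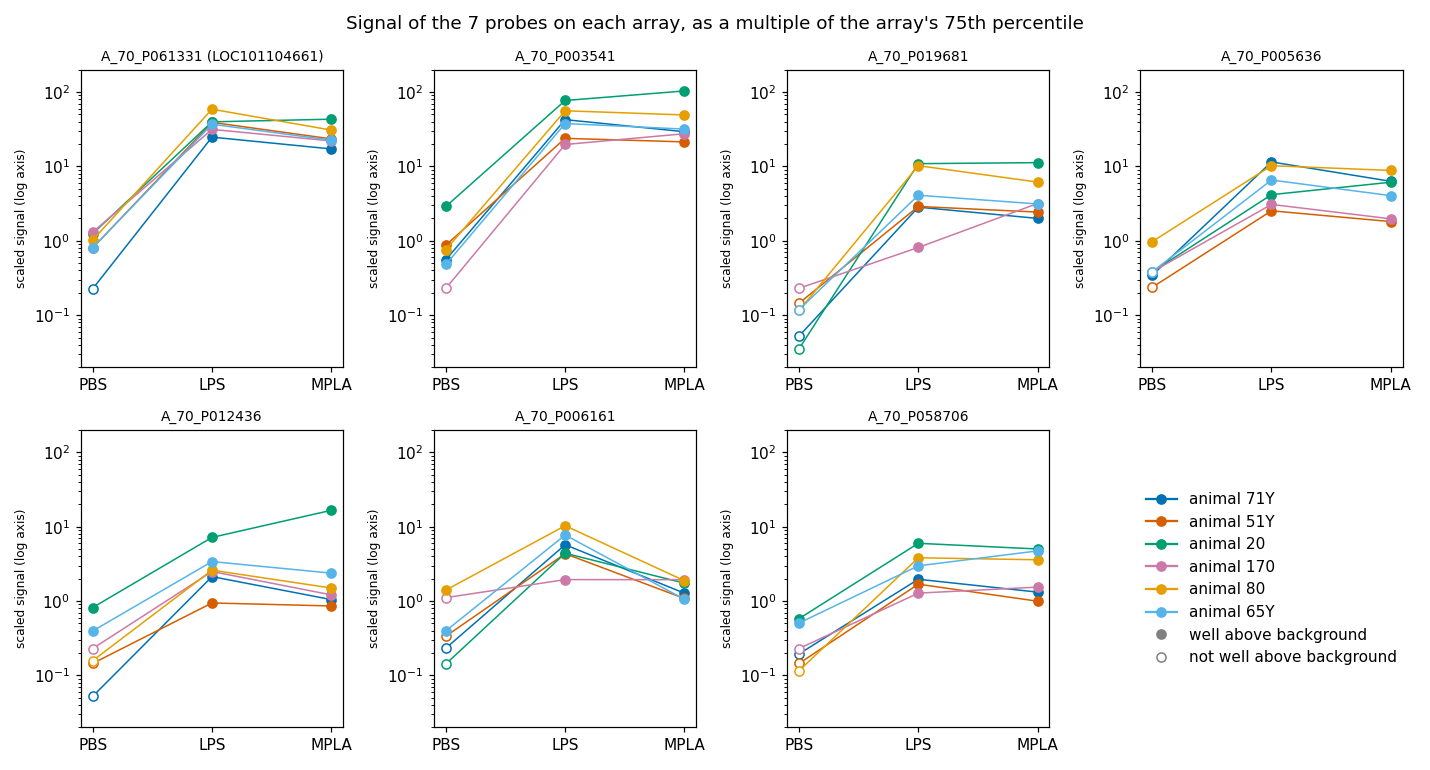
Scaled signal of each of the 7 probes on the 18 arrays, on a log axis, with lines joining the 3 arrays of an animal and open symbols for arrays on which the probe was not well above background. All LPS symbols are filled and lie above the PBS symbols of the same probe, while the LPS and MPLA symbols separate from each other only at A_70_P006161.

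LOC101104661 (A_70_P061331) rose from a level near the 75th percentile of the array to one far above it with both agonists. Its scaled signal in PBS had a lowest value of 0.227, a median of 0.917 and a highest value of 1.31, and it was detected on 5 of 6 PBS arrays. With LPS the corresponding values were 24.8, 38.0 and 58.8, and with MPLA they were 17.2, 23.0 and 43.2. The PBS arrays did not overlap those of either agonist. The mean log2 change was 5.55 ± 0.75 with LPS (SD, n = 6), or 46.9-fold, and 5.0 ± 0.70 with MPLA (SD, n = 6), or 32.0-fold. Its PBS array in animal 71Y was the lowest and the one on which it was not detected, and that animal had the highest change with LPS, at 6.77.

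CXCL1, the nearest coding neighbour of LOC101104661 on one side, was represented by 2 probes that were detected on all 18 arrays. They rose by 2.59 ± 0.64 and 2.38 ± 0.65 with LPS (log2 change, SD, n = 6; limma adjusted p 0.00033 and 0.00051) and by 1.77 ± 0.27 and 1.59 ± 0.29 with MPLA (limma adjusted p 0.00032 and 0.00061). CXCL8, which encodes interleukin-8, also had 2 probes, of which 1 was called with LPS (1.52 ± 0.69, SD, n = 6, limma adjusted p 0.042). The other had a log2 change of 1.12 ± 0.87 (limma adjusted p 0.26), and with MPLA both had an adjusted p of 0.66. The coding neighbours between these genes had no named probe on the array. The difference between LOC101104661 and its neighbours was not tested.

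A_70_P003541 had the highest fitted mean change over both agonists of all 4122 tested probes. Its scaled signal ranged from 0.230 to 2.90 in PBS, with a median of 0.660, and it was detected on 5 of 6 PBS arrays. With LPS it ranged from 19.7 to 77.0 with a median of 40.1, and with MPLA from 21.4 to 103.5 with a median of 30.5. Every agonist array was above every PBS array. The mean log2 change was 5.78 ± 0.80 with LPS (SD, n = 6) and 5.74 ± 0.79 with MPLA (SD, n = 6), which correspond to 54.9-fold and 53.5-fold. Animal 20 had the highest signal under each of the 3 treatments.

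A_70_P019681 was well above background on 0 of the 6 PBS arrays, so its rise has only a lower bound. Its PBS signals lay between 0.0354 and 0.230, and 4 of the 6 were surrogate values. With LPS it ranged from 0.813 to 10.9 with a median of 3.50, and with MPLA from 2.0 to 11.2 with a median of 3.15. The groups did not overlap with PBS. It was at least 8.48-fold higher with LPS and at least 8.61-fold higher with MPLA than in PBS. For this bound, the mean of the agonist arrays on the log2 scale was set against the mean, over the PBS arrays, of the higher of the lowest detected signal on the array and the signal of the probe. With dim signals raised in this way, the rise with LPS was not called (limma adjusted p 0.060), while that with MPLA was (0.0076). The fitted log2 changes, 5.29 ± 2.17 and 5.31 ± 1.64 (SD, n = 6), rest on the surrogate values, and their SDs were the widest among the 7 probes.

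A_70_P005636 was detected on 3 of 6 PBS arrays. Its scaled signal in PBS had a lowest value of 0.237, a median of 0.383 and a highest value of 0.974. It ranged from 2.53 to 11.49 with LPS, with a median of 5.37, and from 1.81 to 8.84 with MPLA, with a median of 5.09. No agonist array was as low as any PBS array. The mean log2 change was 3.74 ± 0.74 with LPS (SD, n = 6) and 3.35 ± 0.68 with MPLA (SD, n = 6).

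A_70_P012436 was detected on 2 of 6 PBS arrays, and 3 of its PBS values were surrogates. Its scaled signal ranged from 0.0524 to 0.819 in PBS with a median of 0.194, and from 0.942 to 7.17 with LPS with a median of 2.55. With MPLA 5 animals lay between 0.859 and 2.37, while animal 20 reached 16.6. The agonist arrays did not overlap the PBS arrays. The fitted log2 change was 3.63 ± 0.95 with LPS (SD, n = 6) and 3.24 ± 0.89 with MPLA (SD, n = 6). With dim signals raised to the lowest detected signal of their array, these changes were 2.17 and 1.78, or 4.49-fold and 3.44-fold. The raised values kept the call for LPS (limma adjusted p 0.018) and lost it for MPLA (0.22). Without the animal block the MPLA change was not called either (limma adjusted p 0.063).

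A_70_P058706 was also detected on 2 of 6 PBS arrays, with 3 surrogate values. Its scaled signal ranged from 0.116 to 0.580 in PBS with a median of 0.212, from 1.28 to 5.97 with LPS with a median of 2.47, and from 0.995 to 5.01 with MPLA with a median of 2.57. All agonist arrays were above all PBS arrays. The fitted log2 change was 3.38 ± 0.93 with LPS (SD, n = 6) and 3.26 ± 0.85 with MPLA (SD, n = 6). Raising dim signals in the same way gave 2.17 and 2.04, or 4.49-fold and 4.12-fold.

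A_70_P006161 was detected on 2 of 6 PBS arrays, where its scaled signal ranged from 0.143 to 1.41 with a median of 0.367. With LPS it ranged from 1.94 to 10.3 with a median of 5.06, above every PBS array. With MPLA it ranged from 1.05 to 1.94 with a median of 1.51, and these arrays overlapped the PBS arrays. The mean log2 change was 3.53 ± 1.52 with LPS (SD, n = 6), or 11.6-fold, and 1.73 ± 1.16 with MPLA (SD, n = 6), or 3.31-fold. With dim signals raised to the lowest detected signal of their array, these changes were 3.28 and 1.47, or 9.70-fold and 2.77-fold. The PBS signal was highest in animals 80 (1.41) and 170 (1.11), but in animal 170 it was not well above background. The PBS array of animal 170 was the dimmest of the PBS arrays, with a 75th percentile of 24.8. Animal 170 also had the lowest LPS signal of the 6.

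For the record of the choice, 7 of the 7 probes were among the 0.825% of tested probes called higher with LPS by limma at an adjusted p under 0.05. For MPLA 6 of the 7 were among the 0.776% called higher, and the exception was A_70_P006161. The LPS arrays lay above all PBS arrays at 7 of 7 probes, against 0.679% of tested probes, and the MPLA arrays did so at 6 of 7, against 0.607%. Nothing is read from these counts, since the probes were chosen on the same changes. By the change with LPS all 7 ranked among the first 9 of the tested probes. By the change with MPLA 6 ranked among the first 12, and A_70_P006161 ranked 26. Among probes with a standard symbol, those of IL1A, IL6 and CSF2 had the highest fitted mean changes. They encode the cytokines interleukin-1 alpha, interleukin-6 and granulocyte-macrophage colony-stimulating factor. These 3 genes and A_70_P019681 were detected on 0 of 6 PBS arrays, so the order of their fitted changes is not settled.

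**Figure D2:**
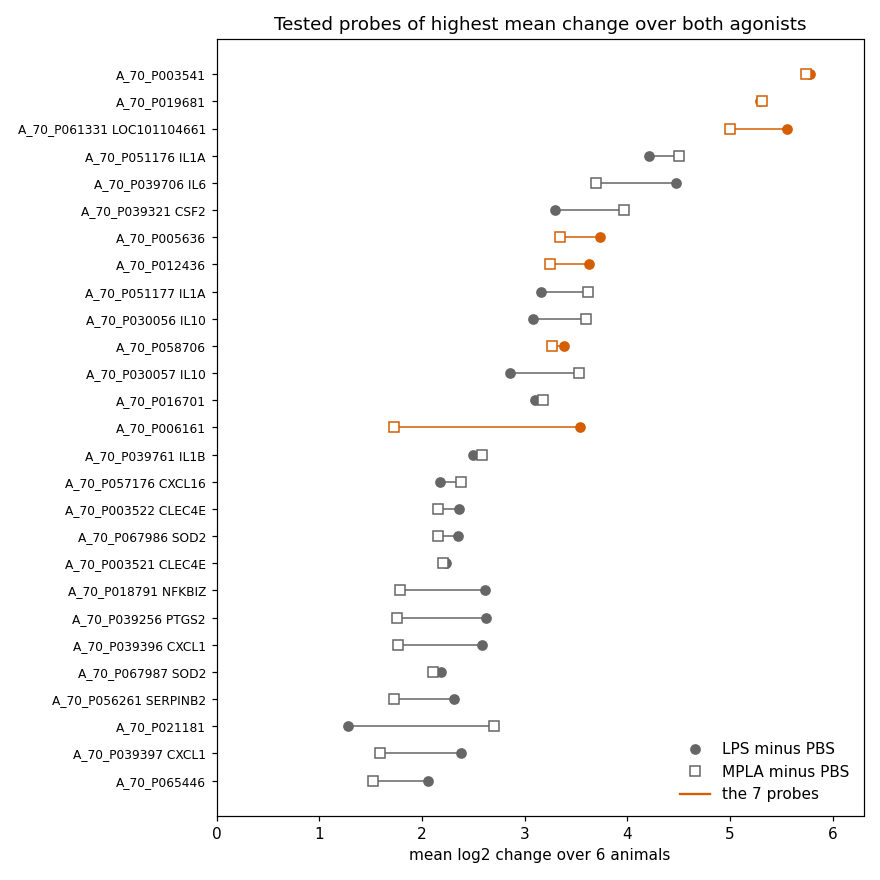
Mean log2 change over 6 animals with LPS (filled circles) and MPLA (open squares) for the 27 tested probes of highest mean change over both agonists, with the 7 probes in orange. The 3 highest rows are unnamed or provisional, and A_70_P006161 has the longest gap between its 2 symbols, from 1.73 to 3.53.

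The probe without a standard symbol that came nearest to the 7 was A_70_P016701, with a mean change of 3.14 over both agonists, below that of A_70_P058706 (3.32) and above that of A_70_P006161 (2.63). Unlike them it was detected on 6 of 6 PBS arrays, where its scaled signal ranged from 5.65 to 35.2. It ranged from 80.9 to 215.0 with LPS, and from 85.2 to 233.8 on the 4 MPLA arrays whose spot was not marked as an outlier.

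MPLA was compared with LPS in the same animals. Of the 7 probes limma called 0 at an adjusted p under 0.05, and 2 had an unadjusted p under 0.05. Over all tested probes, limma called 0.0485%, which was 2 probes, and 193 had an unadjusted p under 0.05.

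A_70_P006161 differed by -1.81 ± 1.02 on the log2 scale (SD, n = 6), with a 95% interval from -2.54 to -1.07. It ranked 8 by its rise with LPS and 26 by that with MPLA, so its place among the 7 rests on the LPS arrays, and a choice of that kind favours a low value of MPLA minus LPS. LPS was 3.50-fold over MPLA, and MPLA was lower in 6 of 6 animals, as it was for 1.84% of tested probes. The difference did not pass the threshold over all probes (limma adjusted p 0.22). With normexp background correction, whose offset of 50 by itself shrinks differences of dim signals, it was -0.99. Every MPLA array was below every LPS array, which held for 0.0728% of tested probes, but the separation was narrow, since both the lowest LPS array and the highest MPLA array were those of animal 170, at a scaled signal of 1.94 each. Animal 170 differed by -0.0043 between the agonists, while the other 5 animals lay between -2.87 and -1.34. Without animal 170 the difference was -2.17 (limma adjusted p 0.028), a value that also rests on the LPS arrays used in the choice. In this animal the MPLA array lay on a different slide from the other two arrays, and the part of the slide in its value was not tested. Within the 3 slides, on which the arrays of the other animals lay together, the mean difference was -2.16 (1 animal), -2.66 (2 animals) and -1.67 (2 animals).

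LOC101104661 differed by -0.55 ± 0.36 on the log2 scale and was lower with MPLA in 5 of 6 animals (SD, n = 6, 95% interval -0.97 to -0.14). It was not called (limma adjusted p 0.84), and with normexp it was -0.0067. Animal 20 was the exception, at 0.12. Both probes of CXCL1 were lower with MPLA in 6 of 6 animals, at -0.82 ± 0.54 and -0.79 ± 0.45 (SD, n = 6), and were not called (limma adjusted p 0.82 and 0.78).

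The other 5 probes had intervals that included 0. A_70_P005636 differed by -0.39 ± 0.51 (95% interval -0.86 to 0.08, lower in 5 of 6 animals) and A_70_P012436 by -0.38 ± 0.85 (95% interval -1.03 to 0.26, lower in 5 of 6). For both, animal 20 was the exception, at 0.56 and 1.21. A_70_P058706 differed by -0.12 ± 0.53 (95% interval -0.61 to 0.36), A_70_P003541 by -0.04 ± 0.40 (95% interval -0.47 to 0.39) and A_70_P019681 by 0.02 ± 0.99 (95% interval -0.69 to 0.74). For A_70_P019681 animal 170 stood apart, at 1.96, against -0.73 to 0.05 in the others. These values are means with SDs over 6 animals, and the limma adjusted p of the 5 probes lay between 0.84 and 0.99. The intervals bound the differences and do not show that the agonists acted alike on these probes.

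**Figure D3:**
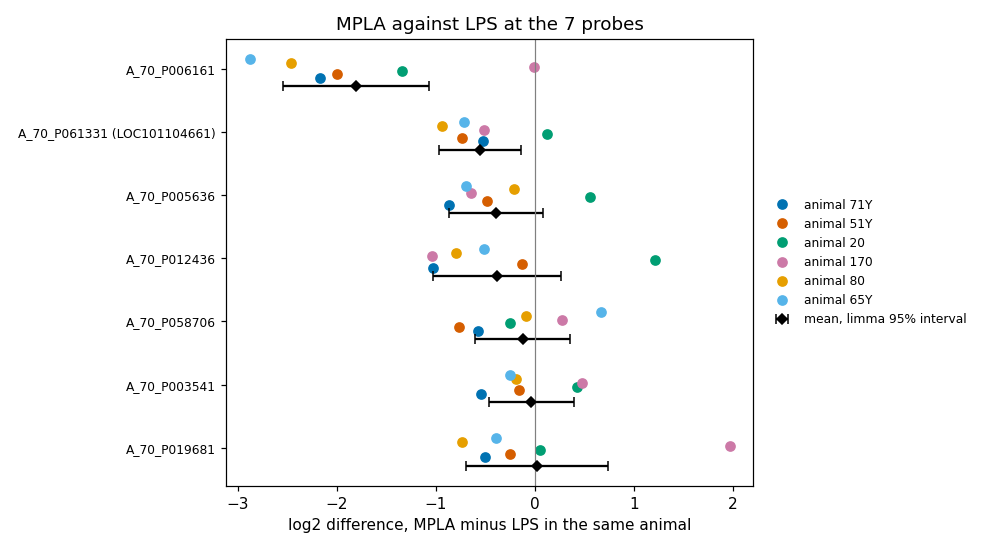
Log2 difference of MPLA from LPS in each of 6 animals (coloured points) at the 7 probes, with the mean and its limma 95% interval (black). The intervals of A_70_P006161 (-2.54 to -1.07) and LOC101104661 (-0.97 to -0.14) lie below 0 and the other 5 include it.

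The changes of the 7 probes with LPS and MPLA are set side by side in the plot of all tested probes. Both changes are taken from the same PBS arrays, so no correlation between them is given.

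**Figure D4:**
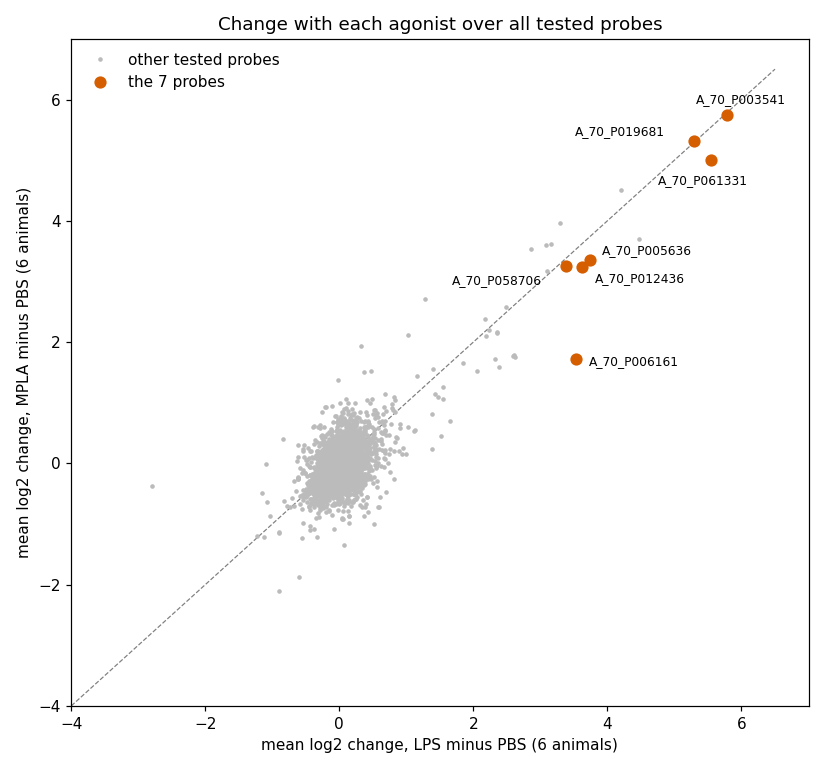
Mean log2 change with LPS (x axis) and with MPLA (y axis) over 6 animals for the 4122 tested probes, with the 7 probes in orange and a dashed line where both changes are equal. A_70_P006161, at 3.53 and 1.73, lies farthest below the line among the 7, and the others lie close to it.

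Animals differed in level in ways that ran across several of the probes. With LPS, animal 20 had the highest scaled signal at 4 of the 7 probes and animal 170 the lowest at 4. With MPLA, animal 20 was the highest at 5 of 7 and animal 51Y the lowest at 4. In PBS animal 20 was again the highest at more probes than any other animal, at 3 of the 7. The probes were measured on the same arrays, so these counts are not independent of each other, and the part of array brightness in them was not tested.

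The likeness of 2 probes was measured as the root mean square difference between their log2 changes over 12 values, those of 6 animals with each agonist, for which lower values mean more alike. As a scale, the root mean square change of a tested probe had a median of 0.51, and pairs of probes for the same called gene differed by 0.22 (CXCL1 and CLEC4E), 0.38 (SOD2), 0.54 (IL10) and 1.1 (IL1A). Among the 7 probes the pair most alike was A_70_P005636 and A_70_P012436, at 0.52, a value within the range of the same-gene pairs. That range does not single out probes of the same gene, since A_70_P058706 fell within it for both IL10 (1.03) and IL1A (1.06). LOC101104661 and A_70_P003541 differed by 1.16. The pair least alike was A_70_P003541 and A_70_P006161, at 3.68.

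Outside the 7, the probes most like LOC101104661 were those of IL1A (1.49), IL6 (1.88) and IL10 (2.0), and the same 3 genes were nearest to A_70_P003541 (1.85, 2.36 and 2.74). A_70_P019681 was nearest to IL6 (1.58), IL1A (1.86) and CSF2 (2.14). A_70_P005636 was nearest to both probes of IL10, an anti-inflammatory cytokine gene (0.74 and 0.81), and so was A_70_P012436 (1.05 and 1.06), with A_70_P016701 next for each (0.94 and 1.20). A_70_P058706 was nearest to A_70_P016701 (0.98), IL10 (1.03) and IL1A (1.06). The likeness values of A_70_P016701 rest on its changes on 6 LPS and 4 MPLA arrays, not on 12 values. A_70_P006161 had other neighbours, PTGS2 (1.05), which encodes the inducible cyclooxygenase, NFKBIZ (1.22), a regulator of NF-kappaB, and the unnamed probe A_70_P048551 (1.29). PTGS2 changed by 2.63 with LPS and 1.76 with MPLA, and NFKBIZ by 2.61 and 1.79. Both had the smaller mean change with MPLA, as A_70_P006161 had, but they were picked for similar changes, so this supports nothing. Neither was called for MPLA against LPS (limma adjusted p 0.84 each). All of these values describe similarity of change and carry no test. A_70_P019681 and the probes of IL1A, IL6 and CSF2 were detected on 0 of 6 PBS arrays, so likeness values with them are poorly measured. Dim probes could also share the surrogate PBS value of an array, and part of their likeness can come from it.

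The named genes of the TLR4 response give the setting of these probes. Of 53 early TLR4 response genes, the array named 27, and 18 of them were tested, with 24 probes. Of these 24 probes, 18 rose with LPS and 17 with MPLA, 0 fell with either, and 0 differed between the agonists at an adjusted limma p under 0.05, where 0.825%, 0.776% and 0.0485% of tested probes were called. With normexp 0 of the 24 passed for LPS and 15 for MPLA, and the methods' t-test after Benjamini-Hochberg called 6 with each. Their median log2 change was 2.36 with LPS and 1.95 with MPLA, against -0.01 and -0.09 over all tested probes. The list was written with results of these data known and holds genes the study reported as raised, so its counts and medians are a description. The probes of IL1A, IL6 and CSF2 were detected on 0 PBS arrays and were tested only through the agonist arrays. Of 15 genes of the TLR4 receptor pathway, 2 were tested with 3 probes, and 0 were called. Blood cell markers could be checked in part. The T cell and monocyte markers had 4 tested probes each and the red cell markers had 1, of which 0 were called in any comparison, and markers of B cells, neutrophils and platelets had no named probe.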

How the data were processed

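Whole blood RNA of 6 sheep was measured on 18 Agilent 1-colour arrays. The authors deposited the Feature Extraction 11.5.1.1 output, whose intensity (background-subtracted processed signal) was used here. They also deposited a table of ratios, each signal divided by 0.984 to 0.995 of the 75th percentile on 16 arrays and by 0.790 and 0.793 of it on the LPS array of animal 170 and the MPLA array of animal 80, which served as an alternative. Kits for RNA amplification are named in the labels without saying which was used for which array. The human arm was not analysed here.

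The processed signal was divided by the 75th percentile over non-control probes, floored at 0.01 and taken as log2, without spots flagged as outliers. Probes detected on all 6 arrays of at least 1 treatment were tested, 4122 of 15008. Treatments were compared with limma 3.58.1 in R 4.3.3 (two-sided, animal as a fixed block, p adjusted after Benjamini-Hochberg, called under 0.05). The labels name the animals, and arrays of an animal deviated together (mean r 0.60 over 18 pairs, lowest 0.13). On simulated data of 4122 probes with normal noise, 200 probes were changed. For MPLA against LPS, 95% of changes of 2 and 98% of changes of 3 on the log2 scale were recovered. Of the calls, 4.0% were false. The real fit called 2 probes, which makes the adjusted threshold harder to pass, so these shares do not carry over to it. The number of arrays limits the precision.

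The 7 probes and the gene lists were chosen with earlier results of these data known. Named beside them are the 3 most similar tested probes of each, the nearest probe outside them that lacks a standard symbol, and list genes. CXCL1 and CXCL8 were added as neighbours of LOC101104661 after their values were seen. Of 2200 RefSeq accessions on probes, 1265 matched a symbol, and the study named 7 more probes. Alternatives covered normalization, background, filters, block, slide, test, flagged spots and each animal left out.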

Additional observations from a re-analysis of the deposited data

Results flagged for a closer look

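Of 42 groups of 6 values examined for the 7 probes, 5 held a value set apart from the rest beyond Dixon's 95% critical value. Chance sets apart about 1 in 20 groups. On the log2 scale, the scaled signal of LOC101104661 in PBS was -2.14 in animal 71Y, that of A_70_P005636 in PBS was -0.037 in animal 80, and that of A_70_P012436 with MPLA was 4.05 in animal 20. The log2 difference of MPLA from LPS at A_70_P019681 was 1.96 in animal 170. The log2 change of A_70_P058706 with MPLA was 4.96 in animal 80, whose PBS value was a surrogate.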

How the results depend on the processing

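The rise of each of the 7 probes over PBS kept its direction under every alternative run, and was smallest with normexp background correction, between 1.23 and 3.71 with LPS and between 0.62 and 4.18 with MPLA on the log2 scale. Normexp, planned on mean spot signals, used median ones. It added an offset of 50 to the signals, which by itself shrinks the log2 changes of dim probes. With dim values raised to the lowest detected signal, 6 of the 7 passed for LPS (all but A_70_P019681) and 5 for MPLA. Without the block 7 and 5 passed, with normexp 2 (LOC101104661 and A_70_P003541) and 5, and by the methods' t-test after Benjamini-Hochberg 3 and 3. Where 5 passed for MPLA, A_70_P012436 and A_70_P006161 were those that did not. Without animal 20 or 80, 7 passed for MPLA. Probes called numbered 37 with LPS, 42 with MPLA and 2 for MPLA against LPS. Normexp called 2 with LPS and 0 for MPLA against LPS. Without a filter on dim probes 24 were called with MPLA and 0 for MPLA against LPS, where the filter of 4 of 6 arrays called 1. Without the animal block (pairing) the counts were 29, 29 and 0. The methods' t-test gave 71, 94 and 53 at its threshold and 10, 13 and 1 after Benjamini-Hochberg. Leaving out each animal in turn gave 27 to 53 with LPS, 34 to 287 with MPLA (287 without animal 20) and 0 to 17 for MPLA against LPS (17 without animal 20, 0 without animal 71Y, 51Y, 80 or 65Y). Of the 7 probes, 0 to 1 were then called for MPLA against LPS, the 1 being A_70_P006161 without animal 170, and 1 was called with slide as a further block, a fit in which the slide term takes up animal 170. For LPS the slide could not be fitted beside the animals. Some uncalled differences of MPLA from LPS changed sign. With normexp they were 0.49 for A_70_P003541, 0.064 for A_70_P005636 and 0.025 for A_70_P058706, where the median of all probes moved from -0.08 to 0.20. Leaving out each animal gave -0.14 to 0.063 for A_70_P003541, -0.28 to 0.0040 for A_70_P058706 and -0.37 to 0.17 for A_70_P019681, which was also at -0.37 with the slide block. The cause was not tested. Dim PBS signals limit the size of the rises.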
